A study of Rattus norvegicus with 15 samples.

Results

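Circular RNAs (circRNAs) in whole blood were compared between 12 h and 6 h after modelling of deep venous thrombosis in Sprague-Dawley rats, which are an outbred strain. The animals were male, 6 to 8 weeks old and weighed 250 to 300 g. The series holds 15 libraries in 5 groups of 3: a sham group sampled at 0 h and groups sampled at 1 h, 6 h, 12 h and 72 h (3 d) after modelling. The comparison uses the 6 libraries of 6 h and 12 h, whose titles carry the same prefix, and nothing in the labels says how the thrombosis was modelled or that the 3 libraries of a time came from separate animals. The p-values then measure only a spread between libraries, which may be technical. In the permutation tests this is the spread of these 6. In the limma fits it is the spread within the groups of all 15, unless stated otherwise. A circRNA entered the comparison when it was above 0 in at least 3 of the 6 libraries, whichever they were. This rule took 10850 circRNAs, which is 35.1% of the 30953 found in any of the 6 libraries and 25.0% of the 43472 in the table.

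A circRNA forms when a splice donor joins an acceptor that lies upstream of it, a reaction called back-splicing. The product has no free ends, is resistant to exonucleases and tends to outlive the linear transcript of its gene, so that its level in a cell can outlast transcription. In blood, circRNAs are known to be abundant in platelets and red cells, which have no nucleus, and they are also present in white cells. Whole blood mixes all of these, and fewer cells of a type cannot be told apart from less RNA per cell. In the table a circRNA has a running number for a name and no host gene, coordinate or sequence. Members of pathways, cell type markers and sequences are therefore not analysed here.

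Levels are in SRPBM, reads across the back-splice per 1e9 mapped reads of the library. With 82.1 to 92.4 M mapped reads (M stands for 1e6) in each of these libraries, 1 read was worth 10.8 to 12.2 SRPBM. No value above 0 stood for fewer than 2 reads, so a value of 0 is given as "listed at 0" and is not read as absence. The 6 h libraries listed 12393, 10539 and 14900 circRNAs, and the 12 h libraries 12507, 14523 and 10861. The groups overlapped, with means of 12611 ± 2189 at 6 h and 12630.3 ± 1834 at 12 h (SD, n = 3 each, two-sided exact permutation p = 1). Of the 10850 circRNAs compared, 8577, 7671 and 9304 were listed in the 6 h libraries and 8499, 9190 and 7749 in those of 12 h. They carried 89.7% to 98.9% of the circRNA signal of a library. The lowest of these shares was in 6 h replicate 2, where CBT15_circR_1124 lay at 2208960 SRPBM. That circRNA was listed in 6 h replicate 2 and 12 h replicate 2 alone among the 6 and so fell outside the rule.

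Total circRNA signal was 14.1, 22.9 and 8.66 M SRPBM in the 6 h libraries and 18.9, 22.0 and 13.5 M in the 12 h libraries. Its means of 15.2 ± 7.16 M at 6 h and 18.2 ± 4.31 M at 12 h (SD, n = 3 each) differed by less than the spread at 6 h, with exact permutation p = 0.7. Without the 10 circRNAs with the highest means, 2.62, 4.81 and 3.49 M SRPBM were left at 6 h and 2.84, 4.75 and 2.08 M at 12 h (exact permutation p = 0.7). The 10 highest took 81.4%, 79.0% and 59.7% of the signal at 6 h and 85.0%, 78.5% and 84.7% at 12 h (exact permutation p = 0.3). After Benjamini-Hochberg adjustment over these 4 two-sided tests the adjusted p lay between 0.93 and 1. With 3 libraries against 3 the smallest p that the exact test can give is 0.1, so none could pass 0.05. The direction of the total rested on 6 h replicate 3, without which the 12 h mean lay 0.30 M below that of 6 h (-0.30 M).

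The circRNAs were divided by their mean over the 6 libraries into 7 abundance classes. The class under 50 SRPBM held 3889 circRNAs with a median of 2.83 reads per library, listed zeros included. Next came 2764 circRNAs at 50 to 100 SRPBM (median 6 reads), 2562 at 100 to 300 (13.5 reads) and 1159 at 300 to 1000 (40.2 reads). Only 451 lay at 1000 to 10000 SRPBM (152 reads), 22 at 10000 to 1000000 (1266.5 reads) and 3 at 1000000 or above (173861 reads). Those 3 carried 79.0% of the signal of all circRNAs compared at 6 h and 83.7% at 12 h. The 2 classes below 100 SRPBM, with the most circRNAs, carried 0.90% and 1.41% of it at 6 h and 0.70% and 1.09% at 12 h. Most of the circRNAs compared were therefore read a few times per library, and most of the signal came from 3 of them.

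Gains, circRNAs listed at 0 in all 3 libraries at 6 h and above 0 in all 3 at 12 h, numbered 129. Losses, the opposite pattern, numbered 134. Both patterns need a circRNA listed in exactly 3 of the 6 libraries, which held for 2744. Among these, 1241 were listed in 1 library at 6 h and 2 at 12 h, and 1240 in 2 and 1. The counts of gains and losses alone are therefore not read as circRNAs switched on or off between the times. The other uneven patterns were also close in number. For instance, 357 circRNAs were listed in 1 library at 6 h and 3 at 12 h, against 422 in 3 and 1, and 922 were listed in 2 and 3, against 892 in 3 and 2. In all, 2649 circRNAs were listed in more libraries at 12 h, 2688 in more libraries at 6 h and 5513 in as many at both. The counts of gains and losses can only rise when a library of the time listed at 0 is left out. Without 6 h replicate 3 the gains numbered 305 and without 6 h replicate 1 they numbered 260, since fewer libraries then had to be at 0. The losses numbered 222, 350 and 252 without 12 h replicate 3, 2 and 1. These patterns were not tested.

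**Figure D1:**
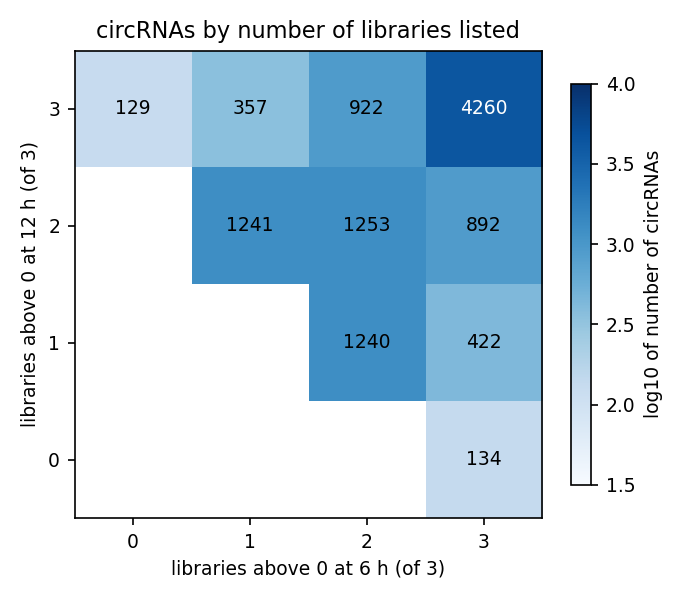
Number of circRNAs by how many of the 3 libraries at 6 h (horizontal axis) and of the 3 at 12 h (vertical axis) listed them above 0, with the shade giving log10 of the number; empty cells fall outside the rule. The numbers on either side of the diagonal are close, as with 129 gains at the upper left and 134 losses at the lower right, and 4260 circRNAs were listed in all 6 libraries.

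Most gains and losses were weakly listed. The class means include the zeros of a gain or loss, which lower its class. Of the 129 gains, 115 lay in the class under 50 SRPBM, 12 at 50 to 100 and 2 at 100 to 300. Of the 134 losses, 125, 6 and 3 lay in the same classes. Classed instead by the higher of the 2 time means, which those zeros do not touch, 48 gains and 49 losses lay under 50 SRPBM, 67 and 76 at 50 to 100, 13 and 8 at 100 to 300, and 1 and 1 at 300 to 1000. Above 1000 SRPBM there were 0 gains and 0 losses by either mean. The gains had a median of 5.33 reads per library at 12 h, and the losses 5 reads per library at 6 h. A read count of 5 or more in every library of the listed time was reached by 25 of the 129 gains and 19 of the 134 losses. Together the gains summed to 8600 SRPBM per library at 12 h, 0.048% of the circRNA signal, and the losses to 8890 SRPBM at 6 h, or 0.068%.

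CBT15_circR_25605 was the gain with the highest mean at 12 h. At 6 h it was listed at 0 throughout, and its 12 h libraries held 324, 340 and 390 SRPBM, which is 29, 30 and 36 reads. The 12 h libraries were close to each other (351 ± 34.1, SD, n = 3), yet the change did not pass the limma test across all circRNAs described below (adjusted p = 0.200). Of its 16 alternative fits, given at the end, 3 called it. These were limma with no filter (adjusted p = 0.00702), limma with 10 times the pseudocount (0.0248) and limma-voom (0.00515). In the other groups this circRNA was listed in 1 of 9 libraries, 1 h replicate 2, at 403 SRPBM. CBT15_circR_1362, next among the gains, was likewise listed at 0 throughout 6 h, and its 12 h libraries held 235, 351 and 238 SRPBM. Its adjusted p from limma was 0.911, and 0.00537 in a fit without sham replicate 2 and 1 h replicate 1, the single alternative that called it (range 0.00537 to 1). Unlike the former it was common elsewhere: 6 of the other 9 libraries listed it, among them sham replicate 1 at 463 SRPBM and 1 h replicate 3 at 631.

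Among the losses, CBT15_circR_6579 had the highest mean at 6 h. Its 6 h libraries lay at 241, 591 and 158 SRPBM (21, 49 and 13 reads), and all 3 libraries at 12 h were listed at 0. The 6 h values spread almost as widely as their own mean (330 ± 230, SD, n = 3), and limma gave an adjusted p of 0.664. CBT15_circR_13378 came next, with 253, 253 and 195 SRPBM in the 6 h libraries and 0 in each 12 h library. Its adjusted p from limma was 1. CBT15_circR_26352, named for its small p (unadjusted 0.000598, adjusted 1 by limma), held 172, 169 and 353 SRPBM at 6 h and 0 throughout 12 h. Each of the 3 losses was also listed in libraries of other groups, in 5, 5 and 3 of the 9.

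Most gains and losses were also listed in other groups of the series. Of the 129 gains, 118 (91.5%) were listed in at least 1 of the 9 libraries of sham, 1 h and 3 d, and 76 in at least 1 sham library. Of the 134 losses, 111 (82.8%) were listed in at least 1 of the 9 and 75 in a sham library. Over all 10850 circRNAs compared, 10459 (96.4%) were listed in at least 1 of the 9. In the class under 50 SRPBM, which held most gains and losses, 361 of 3889 (9.28%) were listed in none of the 9. Of the gains 11 were listed in none, and of the losses 23. The titles of those 9 libraries carry another prefix, so in this count the library set goes with the time and the pair cannot be told apart. Among the 9 are also sham replicate 2 and 1 h replicate 1, which listed far fewer circRNAs than the others.

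**Figure D2:**
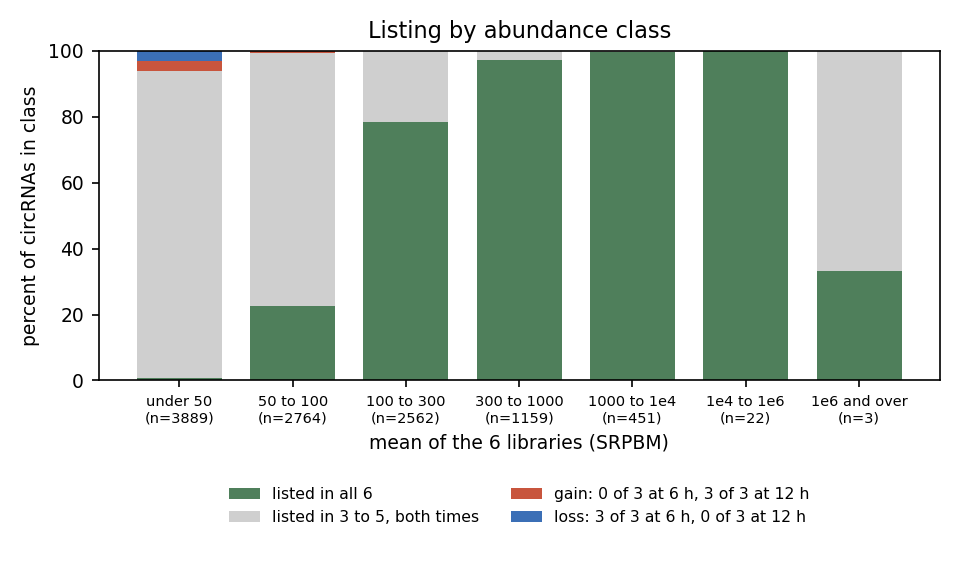
Percent of the circRNAs of each abundance class (horizontal axis, mean SRPBM of the 6 libraries, with the number of circRNAs) that were listed in all 6 libraries, in 3 to 5 libraries with both times present, or as gains or losses. The share listed in all 6 rises from 0.69% in the class under 50 SRPBM to 100% at 10000 to 1000000, and the class above holds 3 circRNAs, of which 1 was listed in all 6.

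The share of circRNAs listed in every library differed by abundance class, with zeros again part of the class mean. In all 6 libraries, 4260 circRNAs (39.3%) were listed. By class these were 27 of 3889 (0.69%) under 50 SRPBM, 624 of 2764 (22.6%) at 50 to 100 and 2009 of 2562 (78.4%) at 100 to 300. Higher up, 1128 of 1159 (97.3%) were listed throughout at 300 to 1000, 449 of 451 (99.6%) at 1000 to 10000 and 22 of 22 at 10000 to 1000000. By the higher time mean the shares ran from 0.39% under 50 SRPBM through 65.0% at 100 to 300 to 99.4% at 1000 to 10000. The highest class broke this order, since only 1 of its 3 circRNAs was listed in all 6. Each of the 4260 was also listed somewhere else in the series, and 2880 (67.6%) were listed in all 7 of the other libraries left when sham replicate 2 and 1 h replicate 1 are set aside.

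Levels of the 4260 differed between times no more than between libraries of the same time. For each pair of libraries the median absolute log2 difference over these circRNAs was taken, with pairs sharing libraries and so given without a test. It was 0.64 at the median of the 6 pairs within a time (range 0.56 to 0.80) and 0.61 at the median of the 9 pairs between times (0.49 to 0.83). The closest pair of all 15 joined the times: 6 h replicate 3 and 12 h replicate 2 differed by a median of 0.49, with a Spearman correlation of 0.83 across circRNAs, which are not independent replicates. These were also the 2 libraries with the most circRNAs listed, 14900 and 14523. Overlap of listing showed as little separation by time, since a library shared 47.6% to 67.3% of its circRNAs with another of its own time and 47.7% to 66.0% with one of the other time.

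**Figure D3:**
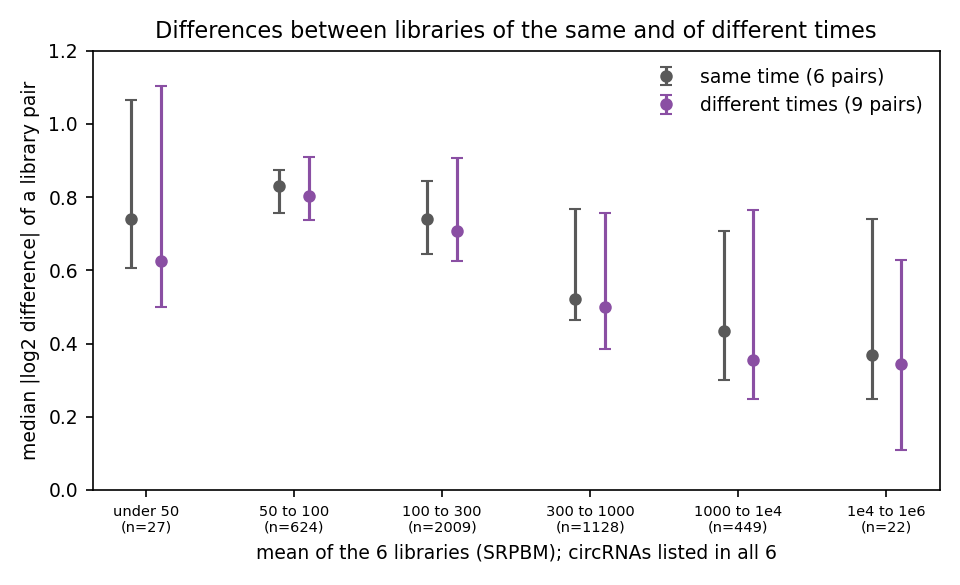
Median absolute log2 difference between 2 libraries over the circRNAs listed in all 6, by abundance class (horizontal axis, with the number of circRNAs). Points are the median and bars the range over the 6 pairs of the same time and the 9 pairs of different times. Both fall with abundance, from the class at 50 to 100 SRPBM on, to 0.37 and 0.34 at 10000 to 1000000, and their ranges overlap in every class shown.

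Within classes the medians were likewise close. Pairs within a time and between times had median differences of 0.83 and 0.80 at 50 to 100 SRPBM, 0.74 and 0.71 at 100 to 300, 0.52 and 0.50 at 300 to 1000, and 0.43 and 0.36 at 1000 to 10000. Part of the difference at high abundance was a shift of whole libraries. Relative to each circRNA's mean over the 6, the median circRNA lay 0.37 lower on the log2 scale in 12 h replicate 3 (-0.37), 0.32 higher in 6 h replicate 3 and 0.29 higher in 12 h replicate 2. With the libraries scaled to remove this shift, a step added after the values were seen, the differences at 1000 to 10000 SRPBM were 0.31 within and 0.28 between times, and those at 10000 to 1000000 were 0.20 and 0.17. Scaled differences were larger between times than within at 50 to 100 SRPBM (0.83 against 0.81) and at 100 to 300 (0.70 against 0.69), and for the 1 circRNA listed throughout in the highest class (0.30 against 0.21). At 300 to 1000 they were 0.44 between times and 0.47 within.

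The ratio of the spread to the counting error was larger at higher abundance, where the counting error was smaller. Over circRNAs listed in all 6, the median coefficient of variation (CV, the SD over the mean of 3 libraries of a time) was 47.6% at 50 to 100 SRPBM, where counting reads alone would give 37.8%. Under 50 SRPBM, with 27 circRNAs, it was 41.0% against 50.0%. It was 43.7% against 26.3% at 100 to 300, 32.7% against 15.7% at 300 to 1000, 25.7% against 8.10% at 1000 to 10000 and 19.8% against 2.82% at 10000 to 1000000. The counting values take every read as an independent molecule, which PCR copies are not. The CVs are of unscaled values, so the shifts of whole libraries described above are part of them.

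Few circRNAs listed throughout differed by more than 2-fold between the means of the times. Within 2-fold were 535 of 624 (85.7%) at 50 to 100 SRPBM, 1843 of 2009 (91.7%) at 100 to 300, 1113 of 1128 (98.7%) at 300 to 1000 and all 449 and 22 in the following 2 classes. Beyond 2-fold at 100 to 300 SRPBM, 65 were higher at 12 h and 101 at 6 h, and at 300 to 1000 the numbers were 3 and 12. These ratios are of unscaled values, which keep the shifts of whole libraries. The median log2 ratio of 12 h over 6 h lay between -0.07 and 0.00 in the 6 classes below 1000000 SRPBM.

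Some circRNAs hardly varied over the 6 libraries, for which the CV is here taken over all 6 together. CBT15_circR_37865, the one with the smallest CV at 1000 to 10000 SRPBM, lay at 1608, 1436 and 1608 SRPBM at 6 h and at 1431, 1462 and 1613 at 12 h, a CV of 6.02% where counting alone would give 8.68%. At 300 to 1000 SRPBM CBT15_circR_30869 lay at 747, 905 and 865 at 6 h and 805, 827 and 866 at 12 h (CV 6.67%). CBT15_circR_28689, at 100 to 300, lay between 207 and 256 SRPBM in all 6 (CV 8.31%), and CBT15_circR_39984, at 10000 to 1000000, between 10607 and 15284 (CV 12.7%). They were picked for their small spread, so these values describe and test nothing. In the libraries not used for this choice, CBT15_circR_39984 ran from 1317 SRPBM in sham replicate 2 to 24051 in 1 h replicate 3. Sham replicate 2 is a library that listed far fewer circRNAs. The choice itself favours a narrower spread in the 6 libraries, so the wider range elsewhere is not read as a difference between times.

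The 3 circRNAs above 1000000 SRPBM behaved differently from each other. CBT15_circR_5191, the most abundant, lay at 9.66 and 15.3 M SRPBM in 6 h replicates 1 and 2, was listed at 0 in 6 h replicate 3, and lay at 12.1, 13.2 and 8.74 M at 12 h. Where listed, it made up 59.9% to 68.5% of a library's back-spliced reads, and the interval of the highest share, in 6 h replicate 1, was 68.4% to 68.6% (Wilson, 95%, counting error only). Beside its zero stand 82.1 M mapped reads in 6 h replicate 3 and 14900 circRNAs listed, the most of the 6. CBT15_circR_5184 held 0 in 6 h replicates 1 and 2, 2.06 M in 6 h replicate 3 and 1.69, 1.74 and 1.12 M at 12 h. The 2 circRNAs were thus listed in opposite libraries at 6 h and both listed in all 3 at 12 h. Elsewhere in the series CBT15_circR_5184 was listed in 1 h replicate 2 alone, at 2.11 M, where CBT15_circR_5191 was at 0. In sham replicate 2 and 1 h replicate 1 both were listed at 0.

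CBT15_circR_5185 was listed in every library, at 1.54, 2.45 and 2.76 M SRPBM at 6 h and at 1.98, 1.98 and 1.39 M at 12 h. Its means of 2.25 ± 0.64 M and 1.78 ± 0.34 M (SD, n = 3 each) overlapped (log2 change -0.31, limma adjusted p = 1). In 6 h replicate 3, where CBT15_circR_5191 was listed at 0, it took 31.8% of the back-spliced reads, against 8.99% to 10.9% in the other 5 libraries. In SRPBM its level there, 2.76 M, was the highest of the 6.

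**Figure D4:**
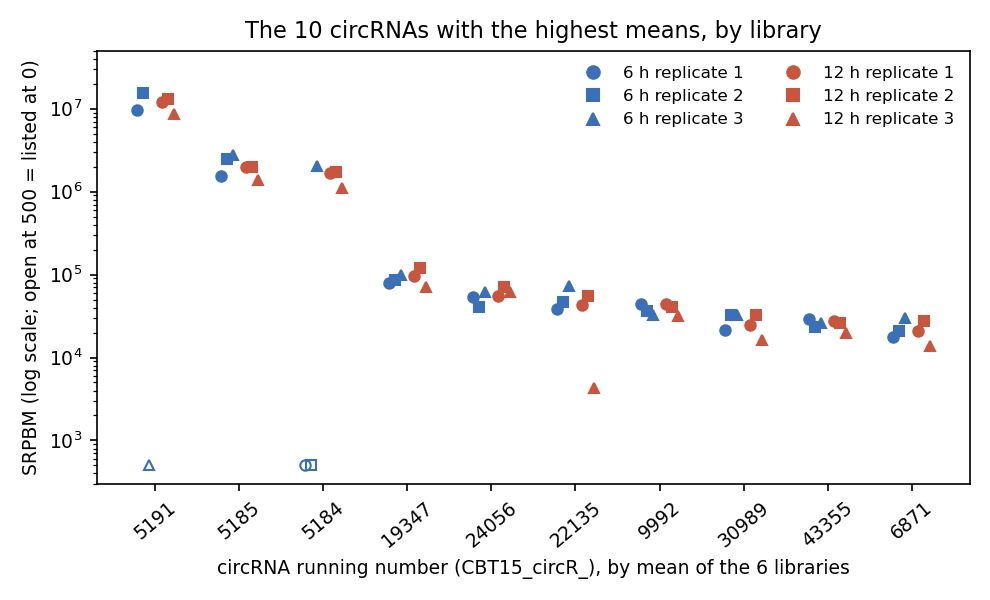
Level of each of the 10 circRNAs with the highest means, as SRPBM on a log scale, in the 3 libraries of 6 h and the 3 of 12 h; open symbols at the bottom mark libraries listed at 0. CBT15_circR_5191 is at 0 in 6 h replicate 3, CBT15_circR_5184 in 6 h replicates 1 and 2, and CBT15_circR_22135 is low in 12 h replicate 3 (4243 SRPBM), while the others overlap between times.

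The next 7 circRNAs by mean lay between 21714 and 91831 SRPBM and were listed in all 6 libraries. CBT15_circR_19347 lay at 79703, 85343 and 99238 SRPBM at 6 h and at 95376, 120197 and 71129 at 12 h. CBT15_circR_24056 lay at 54280, 41024 and 61017 at 6 h and at 55359, 71309 and 61929 at 12 h. The 12 h values of CBT15_circR_19347 ran above and below those of 6 h, while of those of CBT15_circR_24056 the upper 2 lay above all 3 of 6 h and the lowest lay within their range. Limma gave both an adjusted p of 1. The 12 h over 6 h ratio of means was 1.03 for CBT15_circR_9992, 0.85 for CBT15_circR_30989, 0.95 for CBT15_circR_43355 and 0.91 for CBT15_circR_6871, each smaller than the spread of its libraries (limma adjusted p = 1 for each).

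CBT15_circR_22135 was the exception among these 7. Its 6 h libraries held 38806, 46540 and 72568 SRPBM and those of 12 h 42578, 55935 and 4243, so that 12 h replicate 3 was far below the rest. The ratio of means was 0.65 (limma log2 -1.23 with an SE of 0.46, adjusted p = 1), and without 12 h replicate 3 the log2 change was -0.06. With no filter on listing limma called it lower (adjusted p = 3.69e-10), and it passed in 1 of its 18 alternatives. Such low values recurred in other groups, where 1 h replicate 1 lay at 3983 SRPBM, 3 d replicate 1 at 4837 and 3 d replicate 3 at 5972, while the remaining 11 of the 15 libraries lay between 35842 and 103409. No library was found between these levels.

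Isolated zeros were not limited to the highest circRNAs. At 300 SRPBM and above, 24 circRNAs, CBT15_circR_5191 among them, were above 0 in 5 of the 6 libraries and listed at 0 in the remaining 1. That library was 12 h replicate 3 for 8 of them, 6 h replicate 2 for 5, 6 h replicates 1 and 3 for 4 each, 12 h replicate 2 for 2 and 12 h replicate 1 for 1. For instance, CBT15_circR_22947 (chosen, like the next, after its values were seen) lay at 597, 579 and 500 SRPBM at 6 h, at 526 and 600 in 12 h replicates 1 and 2, and at 0 in replicate 3. CBT15_circR_5196 lay at 2275, 2317 and 2364 SRPBM at 6 h, at 1565 and 1631 in 12 h replicates 1 and 2, and was listed at 0 in 12 h replicate 3. The 8 of 12 h replicate 3 stand beside its low count of circRNAs (10861) and its downward shift of 0.37 (-0.37); the part of these in the zeros was not tested.

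The contrast of 12 h with 6 h was tested with limma on log2(SRPBM + 23.2) in a fit of all 15 libraries to 16767 circRNAs, which include the 10850 compared. On this scale differences of weakly listed circRNAs come out too small, and those against zeros vary with the pseudocount. Limma called 2 of the 10850, both higher at 12 h and 0 lower, at a Benjamini-Hochberg adjusted p under 0.05. Over all circRNAs fitted the share called was 0.0119%, the same 2 circRNAs. An unadjusted p under 0.05 was reached by 326 of the 10850 (3.00%), 146 higher and 180 lower, against 637 of the 16767 (3.80%). The median log2 change over the 10850 was -0.06 (quartiles -0.52 and 0.41), beside -0.02 over all fitted. Scaling each library to its total circRNA signal moved these medians to -0.34 and -0.26. The total of 6 h replicate 3, 8.66 M SRPBM, lacks CBT15_circR_5191, which was listed at 0 there. This scaling therefore raises the other circRNAs of that library relative to the other libraries of 6 h and 12 h.

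**Figure D5:**
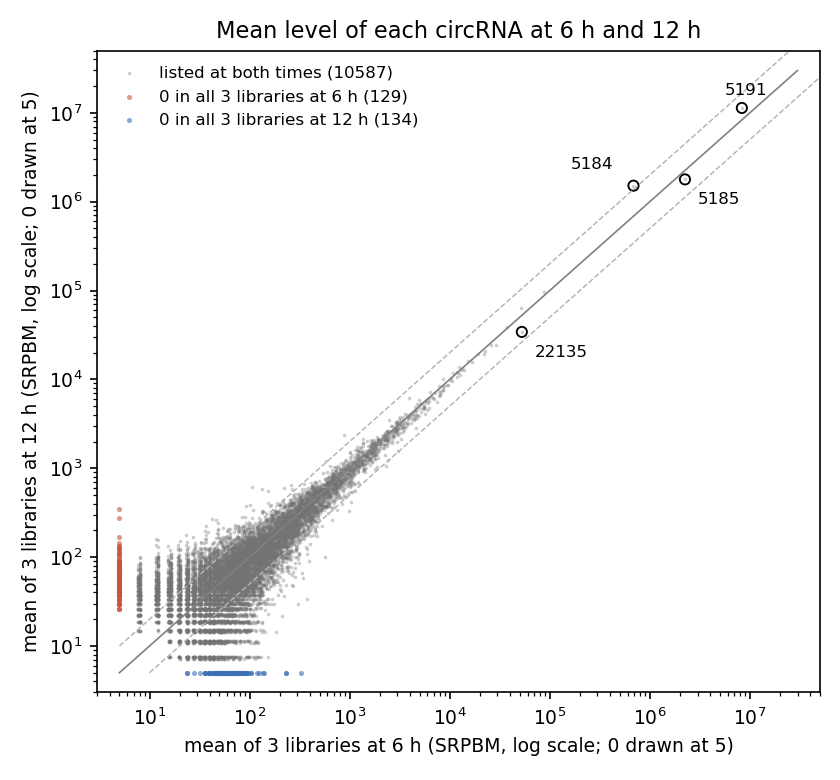
Mean of the 3 libraries at 12 h against the mean of the 3 at 6 h for each of the 10850 circRNAs, in SRPBM on log axes, with equality (solid) and 2-fold differences (dashed). Points at the left and lower margins are the 129 gains and 134 losses, drawn at 5; the cloud narrows with abundance, and CBT15_circR_5184, at 2.21-fold, is the only labelled circRNA beyond 2-fold.

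The 2 calls were CBT15_circR_5184 (limma adjusted p = 1.37e-12) and CBT15_circR_5191 (adjusted p = 0.00713), the pair that was listed in opposite libraries at 6 h. Neither separated the groups: the highest value of CBT15_circR_5184, 2.06 M, was in a 6 h library, as was that of CBT15_circR_5191, 15.3 M. The fitted change of CBT15_circR_5191 rested on the zero of 6 h replicate 3, without which its log2 change was -0.12 (limma adjusted p = 1). For CBT15_circR_5184 the limma adjusted p was 0.819 when 6 h replicate 1 was left out and 0.132 when 6 h replicate 2 was, so neither fit called it, with a log2 change of 7.75 in both against 10.49 with all libraries. The 4 fits without another replicate kept the call, among them that without 6 h replicate 3 (log2 15.97, limma adjusted p = 1.27e-25). In limma without the tie of spread to abundance the SE of CBT15_circR_5191 rose from 1.24 to 4.86 and that of CBT15_circR_5184 from 1.19 to 3.48, and 0 circRNAs were called by limma (429 had an unadjusted p under 0.05). A limma fit of the 6 libraries alone made 0 calls as well (420 had an unadjusted p under 0.05).

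By class, the share with an unadjusted limma p under 0.05 fell with abundance, from 5.22% under 50 SRPBM (203 circRNAs) to 2.64% at 50 to 100 (73), 1.33% at 100 to 300 (34), 0.86% at 300 to 1000 (10) and 0.44% at 1000 to 10000 (2). At 10000 to 1000000 the 1 circRNA was CBT15_circR_22135, and in the highest class all 3 were below 0.05. These p-values rest on the spread in all 15 libraries, tied to abundance. The part of that spread in the fall was not tested, so the fall is not read as a trait of abundant circRNAs.

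Groups without overlap were counted as a description. In 370 circRNAs every 12 h library lay above every 6 h library, and in 561 every 6 h library lay above every 12 h library. These are 2.21% and 3.35% of the 16767 circRNAs fitted; a circRNA without overlap is above 0 in at least 3 of the 6 by construction, so the rule fixes that all of them are among those compared. Gains and losses make up 129 of the 370 and 134 of the 561, and 110 and 214 were listed in all 6 libraries. These counts use unscaled values, which keep the shifts of whole libraries. On the log2 scale the shift was -0.37 in 12 h replicate 3, 0.32 in 6 h replicate 3 and 0.29 in 12 h replicate 2. The part of these shifts in the larger count at 6 h was not tested. At 1000 to 10000 SRPBM 6 were higher at 12 h and 13 at 6 h, and at 10000 SRPBM and above 0 did not overlap. CBT15_circR_8903, an example at 1000 to 10000 chosen after its values were seen, held 5101, 5974 and 6031 SRPBM at 6 h against 4417, 4781 and 3193 at 12 h (limma log2 -0.48 with an SE of 0.65, adjusted p = 1). In the other direction CBT15_circR_16811, chosen in the same way, held 1379, 1038 and 1145 SRPBM at 6 h against 2035, 1631 and 1580 at 12 h (limma log2 0.55 with an SE of 0.77, adjusted p = 1). For both, the log2 difference was smaller than its limma standard error. That error comes from the spread in all 15 libraries, tied to abundance, and not from the 6 values shown.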

How the data were processed

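Blood RNA was extracted with the PAXgene method and sequenced as paired 150 base reads, per the labels' protocols. The authors deposited 1 table of signal values, SRPBM (back-spliced reads per 1e9 mapped reads), from find_circ, per the file's name. Bowtie 0.12.2 and the genome build Rnor_6.0 stand in the submitters' processing notes without a role; which thresholds a circRNA had to pass is not given in the sources used here. Values above 0 came in whole steps of a fixed size in each library (100% within 0.01 read), with 2 steps as the smallest. This step gave the mapped reads and read counts used here. No 2 libraries were identical (0 pairs).

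The contrast was fitted with limma 3.58.1 (R 4.3.3; lmFit, contrasts.fit, eBayes with trend) on log2(SRPBM + 23.2), the pseudocount being the median over libraries of the smallest value above 0. The fit held all 5 groups and circRNAs above 0 in at least 3 of 15 libraries, with Benjamini-Hochberg adjustment over 16767. Pairs of libraries and listing counts were computed in Python 3.11.15. The members, classes and rules for naming were chosen with earlier results of these data known. CircRNAs named are the 10 with the highest means, those called or with the smallest p (2 per direction), the 2 highest gains and losses, and the least variable of each class from 100 SRPBM. Others are marked as chosen after their values were seen. Alternatives are given at the end; the planned count test on recovered reads was not run, since the table holds no counts as deposited, and limma-voom on those reads was added in its place.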

Additional observations from a re-analysis of the deposited data

How the results depend on the processing

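The 2 calls of limma became 0 with a pseudocount of 1 SRPBM (295 at an unadjusted p under 0.05), when at least 8 libraries had to list a circRNA (109), without the trend of the spread (429), with only the 6 libraries (420) and, in an alternative added after the data were seen, with those 6 and only the circRNAs listed in all of them (123). CBT15_circR_5184, listed in 5 of the 15 libraries, could not enter the fit that required 8. Neither CBT15_circR_5184 nor CBT15_circR_5191 could enter the fit of circRNAs listed in all 6. Limma called 1 with median-ratio scaling, 5 with no filter and, also added later, 5 without sham replicate 2 and 1 h replicate 1. With no filter these included CBT15_circR_5185 and CBT15_circR_22135, both lower, and CBT15_circR_25605, higher. Without those 2 libraries they included CBT15_circR_1362, CBT15_circR_6579 and CBT15_circR_25652. With 10 times the pseudocount limma called 2, CBT15_circR_5184 and CBT15_circR_25605. Leaving out each replicate gave 0 to 2 calls. Limma-voom, also added, called 2, of which 0 were among the original 2: CBT15_circR_6579 (adjusted p = 0.0319) and CBT15_circR_25605 (0.00515). Over its alternatives the adjusted p of CBT15_circR_25605 ran from 0.00515 to 1 and that of CBT15_circR_6579 from 0.0253 to 1. With the replicate block limma called 3, and the replicate numbers share only a number: correlations of deviations between same-numbered libraries were -0.01, 0.02 and -0.04, and 1 of the 3 libraries of 6 h correlated best with its own number. A planned count test on recovered reads was not run. The call of CBT15_circR_5191 held in 5 of 17 alternatives and that of CBT15_circR_5184 in 10 of 16, with an adjusted p of up to 1 for both. The log2 change of CBT15_circR_5191 ran from -0.12 to 9.55 when a replicate was left out. CBT15_circR_5185 was also called lower with scaling to total signal, which raises its level in 6 h replicate 3, where the total lacks CBT15_circR_5191.

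The median log2 change over the circRNAs compared was -0.34 scaled to total signal, 0.01 with median-ratio scaling, and from -0.17 to 0.10 without a replicate. With 5 reads needed for a circRNA to count as listed, gains fell to 80 and losses to 61. Without a 6 h replicate the gains numbered 179 to 305, and without a 12 h replicate the losses numbered 222 to 350. The circRNAs compared were still those above 0 in at least 3 of the 6 libraries. Leaving out a replicate could therefore not lower the 129 gains or the 134 losses, and this tests neither count. The difference of 12 h over 6 h when a replicate was left out ran from -1016 to 1164 circRNAs listed, from -0.30 to 6.80 M SRPBM in total signal, and from -1.18 to 0.16 M without the 10 highest. The ratio of the spread between times to that within times, 0.95, stayed between 0.88 and 1.01. Depth limits the classes under 100 SRPBM, where a circRNA had a median of 6 reads or fewer per library.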

Other observations

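The 3 circRNAs above 1000000 SRPBM have close running numbers, and the file does not say how numbers were given. Some neighbours in number were also listed in few libraries. CBT15_circR_5190 lay at 2164 SRPBM in 12 h replicate 2 and at 1851 in 12 h replicate 3, and at 0 in the other 4 libraries. CBT15_circR_5194 lay at 3550 SRPBM in 6 h replicate 1 and at 0 in the other 5. CBT15_circR_5192 was listed at 0, 0 and 24.4 SRPBM at 6 h and at 78.3, 147 and 64.9 at 12 h, the same 4 libraries as CBT15_circR_5184. These were chosen after their values were seen.

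CBT15_circR_25652, also chosen after its values were seen, had the pattern of CBT15_circR_5184 at a lower level. It was listed at 0 in 6 h replicates 1 and 2 and lay at 2656 SRPBM in 6 h replicate 3 and at 2247, 2742 and 2089 at 12 h (limma log2 change 4.39, SE 1.06, adjusted p = 0.200). Limma called it with the replicate block, without 6 h replicate 3, and without sham replicate 2 and 1 h replicate 1.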
